A study of Mus musculus with 39 samples.

Results

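Polycomb repressive complex 2 (PRC2) was followed through its core subunits Ezh1, Ezh2, Eed, Suz12, Rbbp4 and Rbbp7 and its accessory subunits Jarid2, Mtf2, Phf1 and Phf19 in single-cell RNA-seq of mouse testis. The 10 genes were taken by symbol from the 32285 genes in the feature lists of both single-cell libraries, and none was chosen by its level. Whole testis was profiled with a 3′ droplet kit (Chromium 3' v3.1) in 1 control library, genotype Kdm6a fl/y without Cre, and 1 conditional knockout (cKO) library, genotype Kdm6a fl/y with Ddx4-Cre. Both genotypes thus carry the floxed allele of Kdm6a, an X-linked gene for an H3K27 demethylase, and Ddx4 is a gene of germ cells, so Cre is driven there and not in the somatic cells of the testis. The labels give neither the age of the males nor how many animals went into a library. Chromatin data come from sorted cKIT+ spermatogonia of the same genotypes: 2 control and 3 cKO libraries of ATAC-seq, which marks open chromatin, the same numbers of CUT&Tag libraries for H3K27me3, and 1 control library with IgG. With 1 single-cell library per genotype no test of genotype was possible, the genotype and the library cannot be told apart, and every interval given covers counting error only.

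PRC2 trimethylates a lysine of the histone H3 tail, a mark (H3K27me3) of repressed chromatin that KDM6A removes. The enzyme is EZH2 or its paralogue EZH1, EED reads the mark, SUZ12 holds the complex together, and RBBP4 and RBBP7 are interchangeable histone-binding subunits. MTF2, PHF1 and PHF19 are Polycomb-like proteins of one form of the complex, PRC2.1, and JARID2 belongs to the other, PRC2.2. In many tissues EZH2 marks dividing cells and EZH1 persists in cells that have left the cycle. In the testis PRC2 is known for its role in spermatogonia and in silencing somatic genes during meiosis.

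The upstream promoter sequences of 4 members are shown because results below turn on them: the paralogues Rbbp4 and Rbbp7, whose RNA parted between spermatogonia and early meiotic cells, and Suz12 and Ezh1, whose levels were lower in the cKO library in every named class. They are the bases just before the annotated transcription start in RefSeq (GRCm38.p6, the mm10 build of the files), 5′ to 3′ on the gene's own strand. Capitals mark a CCAAT box or an E2F core (TTGGCGC or the variants TTCCCGC or TTCGCGC or TTGCCGC), searched on both strands, where matches may overlap and share bases. Ezh1 (chr11:101226464-101226713, minus strand), Suz12 (chr11:79992856-79993105, plus strand) and Rbbp7 (chrX:162760122-162760371, plus strand) are given over 250 bases. Rbbp4 (chr4:129335371-129335531, minus strand) is given over 161 bases, because the neighbouring gene Zbtb8os starts beyond.
Ezh1: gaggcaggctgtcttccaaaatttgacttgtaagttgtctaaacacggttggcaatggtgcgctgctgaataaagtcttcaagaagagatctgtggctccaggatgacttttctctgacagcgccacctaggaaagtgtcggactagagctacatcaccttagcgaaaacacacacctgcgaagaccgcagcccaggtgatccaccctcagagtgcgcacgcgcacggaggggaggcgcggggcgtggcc
Suz12: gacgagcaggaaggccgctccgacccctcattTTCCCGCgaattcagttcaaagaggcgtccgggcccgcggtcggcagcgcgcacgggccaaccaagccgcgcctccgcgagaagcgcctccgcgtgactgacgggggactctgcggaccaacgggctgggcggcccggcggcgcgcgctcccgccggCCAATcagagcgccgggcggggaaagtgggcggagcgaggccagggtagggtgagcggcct
Rbbp4: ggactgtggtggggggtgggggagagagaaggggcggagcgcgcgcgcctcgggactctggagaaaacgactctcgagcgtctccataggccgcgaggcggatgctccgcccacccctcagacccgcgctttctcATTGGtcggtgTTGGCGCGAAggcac
Rbbp7: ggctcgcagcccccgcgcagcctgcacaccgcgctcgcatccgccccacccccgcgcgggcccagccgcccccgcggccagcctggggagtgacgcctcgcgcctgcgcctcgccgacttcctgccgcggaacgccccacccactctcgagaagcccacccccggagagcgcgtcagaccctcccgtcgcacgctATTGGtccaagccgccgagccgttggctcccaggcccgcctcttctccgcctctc

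All 10 members matched a RefSeq promoter, and all 10 had at least 10 CpG dinucleotides in the 250 bases before a start, as did 40.2% of the 27025 genes with a promoter in the table. Among the printed sequences Ezh1 held 14 CpG over 250 bases, Rbbp4 18 over 161 bases, and Rbbp7 34 and Suz12 37 over 250 bases. A CCAAT box on either strand was found in 6 of 10 members (Ezh2, Suz12, Jarid2, Rbbp4, Rbbp7 and Mtf2), against 37.5% of all genes. A gene counts if any of its annotated starts has a match. Mtf2 counts only through a start (chr5:108077915-108078164) with 2 CpG and no ATAC-seq peak in any library, and its other start has 0 matches. An E2F core was found in Suz12, Rbbp4 and Phf19, 3 of 10, against 9.01% of all genes. A GC box (GGCGGG) was found in 7 of 10 members against 35.1%, and the CRE palindrome TGACGTCA in 0 of 10 against 1.77%. These are matches of letters within this window only.

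In cKIT+ spermatogonia an ATAC-seq peak of the authors lay over the promoter window (250 bases before to 50 after the start) of 8 of the 10 members in every one of the 5 libraries: Ezh2, Eed, Suz12, Jarid2, Rbbp4, Rbbp7, Mtf2 and Phf1. Over all genes the share with such a peak was 33.1% and 40.8% in the control libraries and 25.6%, 31.2% and 43.6% in the cKO libraries. These shares are per library, where 8 or 9 of the 10 members had a peak. The share of all genes with a peak in every library was not counted. Phf19 had no peak in any library, and it was also nearly absent from the single-cell RNA. Ezh1, whose promoter is printed above, had a peak in 3 of 5 libraries: not in control 1 or cKO 1, and with an authors' fold over background of 4.44 in control 2, 5.32 in cKO 2 and 3.85 in cKO 3. The count was 2 of 5 where the peak had to cover at least 150 bases of the window (cKO 2 no longer counted) and 4 of 5 within 2000 bases of it (control 1 also counted). The libraries without it had 19118 (control 1) and 14635 (cKO 1) peaks in all, and those with it had 33250 (control 2), 18883 (cKO 2) and 40497 (cKO 3). The part of peak number in the Ezh1 calls was not tested.

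The fold values are the authors' own and describe a peak within its list. At Ezh2 they were 7.92 and 7.14 in control and 8.71, 6.27 and 9.17 in cKO libraries. At Rbbp7 they were 7.39 and 7.61 in control and 7.12, 8.56 and 8.89 in cKO libraries. At Suz12 they were 4.99 and 5.37 in control and 5.79, 6.3 and 5.42 in cKO libraries. For Ezh2 and Rbbp7 the cKO values lay on both sides of the control values, and for Suz12 the 3 cKO values lay just above both controls. Suz12 was not alone in this. The Jarid2 values in cKO (5.35, 4.57 and 4.69) also lay above both controls (4.54 and 4.55). Those of Phf1 in cKO (4.46, 4.57 and 5.3) lay below both controls (5.46 and 5.75). No H3K27me3 region of the authors lay over any of the 10 promoters, or within 2000 bases of the window, in any of the 5 libraries. Over all genes the share with a region over the window was 9.82% and 12.6% in control and 5.37%, 7.44% and 11.4% in cKO libraries, and 0.281% in the IgG library. With such shares over all genes, 0 of 10 sets the members apart in neither genotype.

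**Figure D1:**
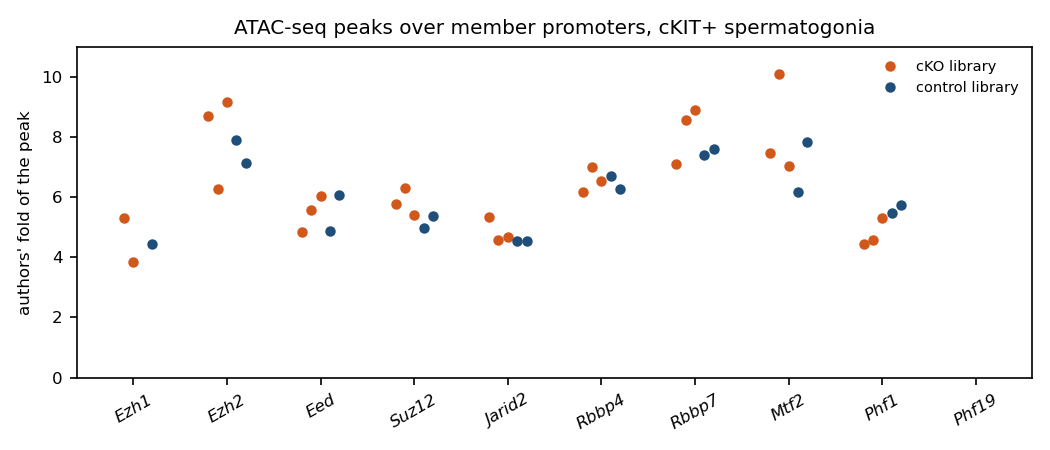
Fold over background (linear axis) of the authors' ATAC-seq peak over the promoter of each member in cKIT+ spermatogonia, 1 point per library (2 control, 3 cKO). A missing point is a library with no peak: Ezh1 has points for 3 of 5 libraries and Phf19 for none.

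The single-cell libraries were of unlike size, and free spermatid RNA was present in both. Barcodes with at least 3000 UMIs numbered 11252 in control (median 8410 UMIs) and 8520 in cKO (median 8499), with 30 barcode sequences in common and 1103 cells (5.58%) called as doublets, which were kept. Clusters built without the members were named from marker lists, and 7 named classes were used: spermatogonia-like (323 control and 272 cKO cells), leptotene-zygotene-like (744 and 697), pachytene-and-later-like (1271 and 1013), round spermatid-like (1968 and 1736), elongating spermatid-like (4289 and 3240), Sertoli-like (104 and 163) and Leydig-like (112 and 102). A further 6 clusters stayed unnamed and are given by number, and a macrophage-like cluster had too few cells (18 and 12). Prm1, the protamine RNA of elongating spermatids at 75000 and 84700 CPM there (a gene's UMIs scaled to a common class total), was at 6610 (control) and 9300 (cKO) CPM in spermatogonia-like cells, 7040 and 9410 in Sertoli-like cells, and 9200 and 5540 in Leydig-like cells. If all spermatid RNA in a class were free RNA, free RNA would make up 47.5% (control) and 64.7% (cKO) of spermatogonia-like, 48.0% and 71.4% of Sertoli-like, and 59.1% and 44.8% of Leydig-like UMIs. In leptotene-zygotene-like cells the same estimate was 29.9% and 29.7%. The part of this difference in the results was tried only by subtracting the estimate, as given below for the ratios.

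Kdm6a itself had 49 UMIs in control and 14 in cKO spermatogonia-like cells, or 20.2 and 7.65 CPM, and 48.4 and 7.84 CPM in cluster 8, which is led by Hist1h1a and Stra8. In Sertoli-like cells, where Cre is not expected, Kdm6a was at 19.6 CPM in control and 23.4 CPM in cKO. In Leydig-like cells, also outside the germ line, its log2 ratio was -0.46 from 22 UMIs over both libraries. The germ-cell difference has the direction of the genotype label. The labels do not say which exons are deleted, so a read at the 3′ end need not lie in them.

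Ezh2 and Ezh1, the catalytic subunits, followed different courses through the germ line. In control, Ezh2 was at 120 CPM in spermatogonia-like cells (95% interval 107 to 135), 298 (287 to 310) in leptotene-zygotene-like cells, 125 (121 to 130) in pachytene-and-later-like cells, 115 (111 to 119) in round and 27.1 (25.3 to 28.9) in elongating spermatid-like cells. In cKO the same classes were at 95.6, 291, 121, 117 and 20.2 CPM. Ezh2 was thus highest in early meiotic cells in both libraries, with no overlap with the next class. The leptotene-zygotene-like class pools cluster 13, led by Rad51ap2 and Meiob, and cluster 7. Ezh2 was at 227 and 327 CPM in these clusters in control, and at 205 and 314 CPM in cKO. Spermatogonia-like cells could not be ordered against pachytene-and-later-like or round spermatid-like cells in control, as their intervals overlap. In cKO the spermatogonia-like level (82.0 to 111) lay below both (116 to 126 and 113 to 121). After every cell was thinned to 3000 UMIs, an Ezh2 UMI was found in 53.6% of control leptotene-zygotene-like cells (85.5% unthinned) and in 31.0% of spermatogonia-like cells (51.4% unthinned). In cKO it was found in 57.5% of leptotene-zygotene-like cells and in 68 of 272 spermatogonia-like cells. With the free RNA of barcodes under 100 UMIs subtracted, the control Ezh2 levels were 180, 403, 153, 131 and 17.5 CPM in the order above, and with that of barcodes with at least 500 and under 1000 UMIs they were 134, 367, 133, 118 and 5.37 CPM. Leptotene-zygotene-like cells were highest under both. The first subtraction turned the cKO order of spermatogonia-like cells round, as the log2 ratio of cKO over control was then 0 there, 0.01 in pachytene-and-later-like and -0.01 in round spermatid-like cells.

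Ezh1 was at 39.2 CPM (31.7 to 47.9) in control spermatogonia-like cells, 37.3 (33.2 to 41.7) in leptotene-zygotene-like cells and 6.5 (5.58 to 7.53) in pachytene-and-later-like cells. It was at 2.84 (2.26 to 3.53) in round and 1.37 (0.998 to 1.84) in elongating spermatid-like cells. With the free RNA estimated from barcodes under 100 UMIs subtracted, the last 3 of these levels were 6.11, 1.69 and 0 CPM. Control Sertoli-like cells held 38.2 CPM and Leydig-like cells 29.1 CPM. These somatic levels, the spermatogonia-like level and the early meiotic level overlap within their intervals, and the later germ-cell levels lie apart from them. Ezh1 was therefore found in somatic and early germ cells, and its low level in elongating spermatid-like cells was no higher than the free RNA estimated there.

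UMIs of a 3′ kit count molecules and need no correction for gene length, so a share within a pair can be followed over classes, although capture may differ between genes. Ezh1 made up 24.6% (interval 20.4 to 29.2) of the Ezh1 and Ezh2 UMIs in control spermatogonia-like cells, 11.1% (9.95 to 12.3) in leptotene-zygotene-like and 4.93% (4.25 to 5.69) in pachytene-and-later-like cells. In cKO the shares were 18.6%, 8.49% and 4.45%. The Ezh1 shares of somatic cells were larger in value, 31.1% (22.9 to 40.2) in control and 38.9% in cKO Sertoli-like cells. They were 47.5% and 37.3% (24.1 to 51.9) in Leydig-like cells, where the pair had only 61 and 51 UMIs. The control Sertoli-like and cKO Leydig-like intervals overlap the spermatogonia-like ones (13.6 to 24.5 in cKO). With the free RNA of barcodes with at least 500 and under 1000 UMIs subtracted, control Leydig-like cells had Ezh1 at 52.9 and Ezh2 at 0 CPM.

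Rbbp7 and Rbbp4, the paralogous histone-binding subunits, parted between spermatogonia-like and leptotene-zygotene-like cells. Rbbp7 was at 160 CPM (144 to 176) in control spermatogonia-like cells, 4.38 (3.07 to 6.07) in leptotene-zygotene-like cells and 1.31 (0.921 to 1.82) in pachytene-and-later-like cells, and the cKO levels were 149, 4.52 and 0.826 CPM. Rbbp4 in the same control classes was at 210, 312 and 140 CPM, and in cKO at 176, 277 and 126 CPM. In both libraries the Rbbp7 level was thus far lower in the class where Rbbp4 was highest among germ cells. Within that class control Rbbp7 was at 11.6 CPM in cluster 13 and 1.53 in cluster 7, and cKO Rbbp7 at 15.0 and 1.67. Its log2 ratio of cKO over control in the whole class, 0.04, ran from -1.35 to 0.86 over the alternatives. As a share of the pair, Rbbp7 was 43.2% (40.0 to 46.6) in control and 45.9% in cKO spermatogonia-like cells, and 1.39% (0.973 to 1.91) and 1.61% in leptotene-zygotene-like cells. In cluster 8, led by Hist1h1a and Stra8 with 91.7% of leptotene-zygotene markers raised, it was still 43.8% in control and 35.7% in cKO. It was 7.59% and 6.47% in round and 14.6% and 12.8% in elongating spermatid-like cells, but the control Rbbp7 levels there (3.05 and 3.59 CPM) came to 0 with the free RNA of barcodes under 100 UMIs subtracted, as did those in leptotene-zygotene-like and pachytene-and-later-like cells. For leptotene-zygotene-like and pachytene-and-later-like cells the share subtracted was above what Prm1 alone gives. How reads that fit both paralogues were assigned is not stated in the labels.

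Rbbp7 is the only member on the X chromosome, which is silenced during meiosis in males. From spermatogonia-like to leptotene-zygotene-like cells the log2 difference of Rbbp7 was -4.9 in control and -4.76 in cKO. The median X-linked gene differed by -2.66 (407 genes with at least 20 UMIs) in control and by -2.99 (357 genes) in cKO, and the median autosomal gene by -0.3 and -0.23. Rbbp4, on chromosome 4, differed by 0.57 and 0.65. From leptotene-zygotene-like to pachytene-and-later-like cells the median X-linked gene differed by -0.52 in control and -0.35 in cKO, and Rbbp7 by -1.22 and -1.6. The part of X-chromosome silencing in the Rbbp7 levels was not tested. From pachytene-and-later-like to round spermatid-like cells the control difference was 0.81 for Rbbp7, 1.39 for the median X-linked gene and -1.89 for Rbbp4. AU022751, the older symbol of Ezhip, an X-linked inhibitor of PRC2, differed by -3.11 at the first of these steps in control, from 8.67 to 0.122 CPM. Rbbp7 was highest of all classes in Leydig-like cells, 479 CPM (437 to 524) in control and 374 (333 to 418) in cKO. A Rbbp7 UMI was found in 72.3% of thinned control Leydig-like cells (92.9% unthinned, median depth 8089 UMIs) and in 0.551% of pachytene-and-later-like cells (2.75% unthinned, median depth 19791).

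**Figure D2:**
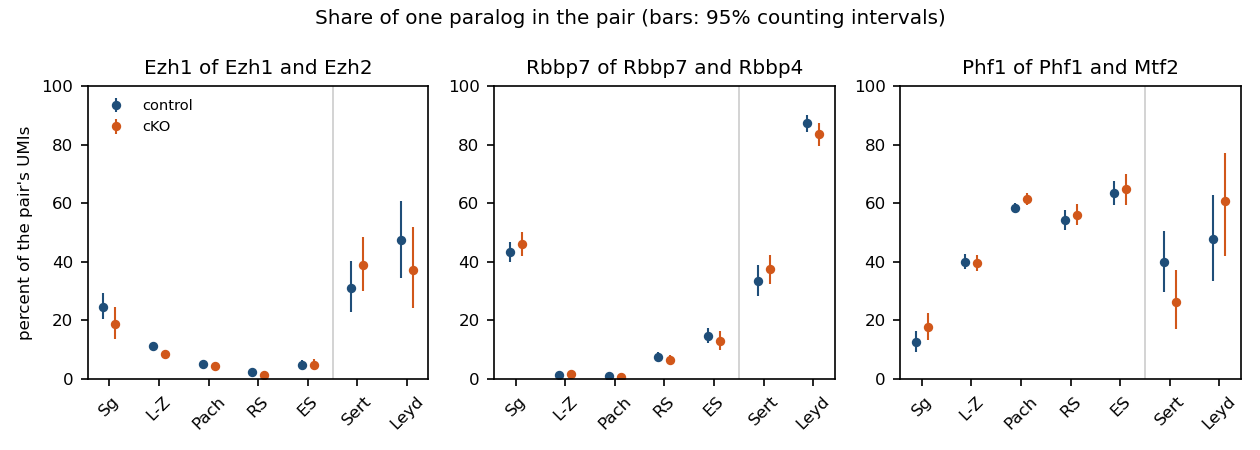
Share of the first gene in the UMIs of each pair (percent, linear axis from 0 to 100) by class and library; bars are 95% exact binomial intervals. Sg is spermatogonia-like, L-Z leptotene-zygotene-like, Pach pachytene-and-later-like, RS and ES round and elongating spermatid-like, Sert Sertoli-like and Leyd Leydig-like; the Rbbp7 share is 43.2% at Sg and 1.39% at L-Z in control.

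Eed and Suz12, the other core subunits, were highest, among the named classes, in spermatogonia-like cells and lower in each later named germ class. The leptotene-zygotene-like class pools unlike clusters, however. In its cluster 13, led by Rad51ap2 and Meiob, Suz12 was at 226 CPM in control and 190 in cKO, above the spermatogonia-like 194 and 144. In its cluster 7 Suz12 was at 104 and 83.6 CPM. Control Suz12 was at 194 CPM (177 to 213) in spermatogonia-like, 139 (131 to 147) in leptotene-zygotene-like, 40.0 (37.7 to 42.4) in pachytene-and-later-like, 14.9 (13.5 to 16.4) in round and 10.4 (9.28 to 11.5) in elongating spermatid-like cells. Control Eed was at 75.5, 60.0, 31.1, 19.6 and 5.06 CPM in the same order, where the first 2 intervals overlap. The cKO library had the same order of germ classes for both genes. Round spermatid-like cells thus had Ezh2 at 115 CPM and Suz12 at 14.9 CPM, or 131 and 13.6 CPM with the free RNA of barcodes under 100 UMIs subtracted.

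The accessory subunits split by stage. Mtf2 was at 121 CPM (108 to 136) in control spermatogonia-like, 103 (96.4 to 110) in leptotene-zygotene-like and 53.8 (51.1 to 56.7) in pachytene-and-later-like cells. Phf1, its Polycomb-like relative, was at 17.3 (12.5 to 23.4), 68.8 (63.3 to 74.7) and 75.6 (72.3 to 78.9) CPM in the same classes, so of these 3 classes it was lowest in spermatogonia-like cells, where Mtf2 was above its pachytene-and-later-like level. With the free RNA of barcodes under 100 UMIs subtracted, the control Phf1 levels were 6.52, 85.7 and 93.6 CPM, and the first was 4 CPM with that of barcodes with at least 500 and under 1000 UMIs. The Phf1 share of the pair was 12.5% in control and 17.6% in cKO spermatogonia-like cells, 40.0% and 39.6% in leptotene-zygotene-like cells, and 58.4% and 61.4% in pachytene-and-later-like cells.

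Among the named classes Jarid2 was highest in spermatogonia-like cells, and cluster 8 was higher still (136 CPM, 123 to 150, in control). In cluster 13, a part of the leptotene-zygotene-like class, Jarid2 was also higher, at 140 CPM in control and 164 in cKO. It was at 102 CPM (89.2 to 115) in control spermatogonia-like, 74.8 (69.0 to 80.9) in leptotene-zygotene-like, 7.89 (6.87 to 9.01) in pachytene-and-later-like, 19.9 (18.3 to 21.6) in round and 4.31 (3.62 to 5.09) in elongating spermatid-like cells, and in cKO at 91.2, 69.5, 6.9, 17.7 and 3.46 CPM. With the free RNA of barcodes under 100 UMIs subtracted, the last 3 control levels were 5.07, 21 and 0.382 CPM, and the last was 0 with that of barcodes with at least 500 and under 1000 UMIs. In round spermatid-like cells Jarid2 was thus above its pachytene-and-later-like and elongating levels, and the intervals of these classes do not overlap. Phf19 had 4 UMIs in each library over all cells, with 2 of them in spermatogonia-like cells of each. Its level over all control cells was 0.0301 CPM (0.0082 to 0.0771), too low for any comparison.

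**Figure D3:**
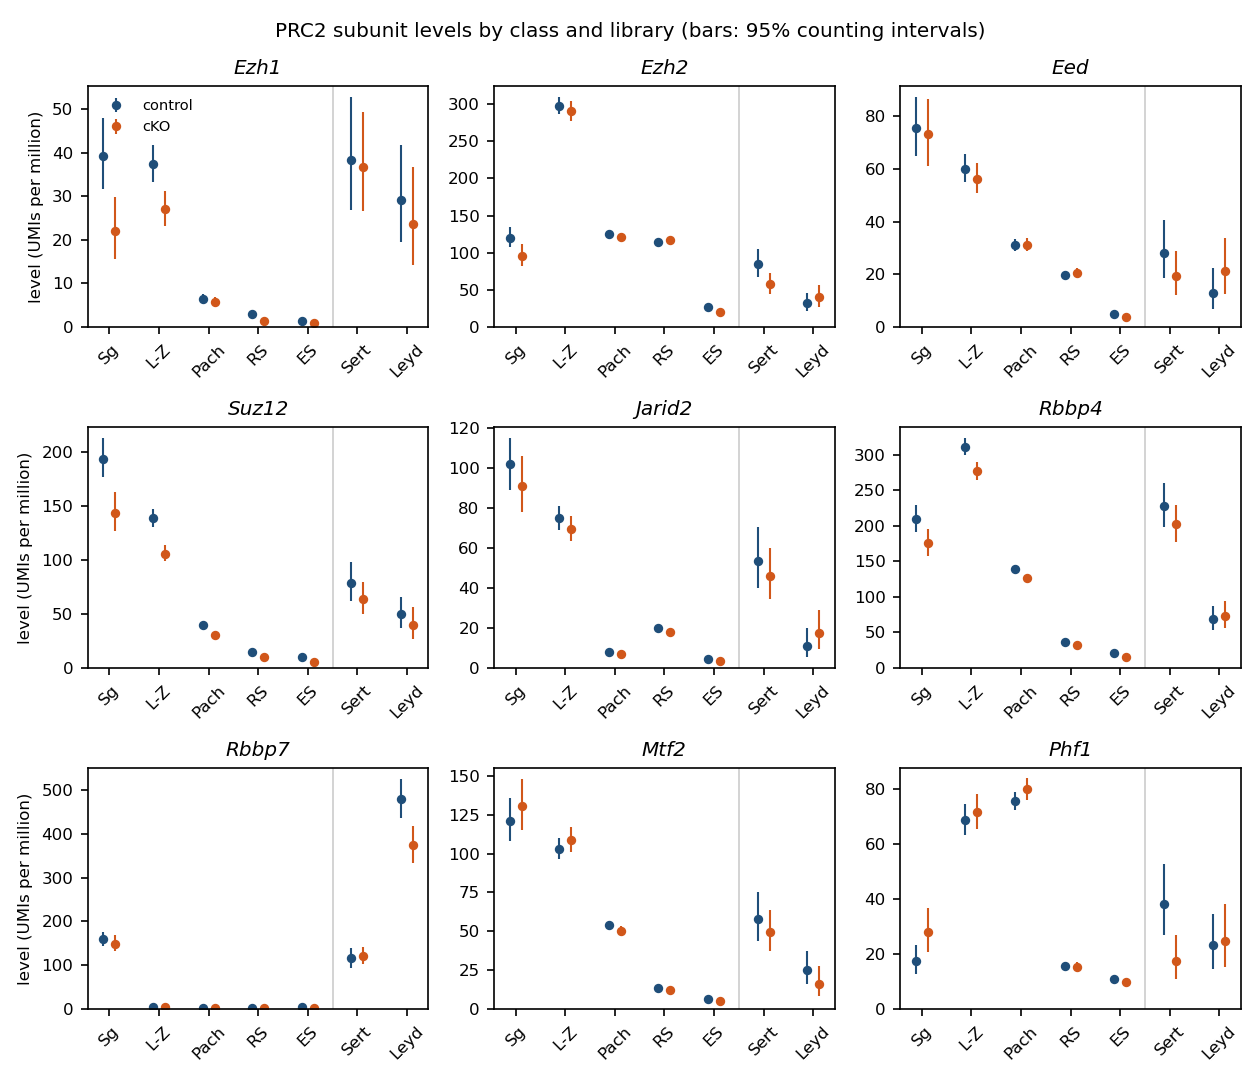
Level of each member (CPM) by class in the control and the cKO library, with 95% exact Poisson intervals of the UMI sums; classes are abbreviated as Sg, L-Z, Pach, RS, ES, Sert and Leyd. Ezh2 and Rbbp4 peak at L-Z, the Phf1 intervals at L-Z and Pach overlap, and the other members with enough UMIs have their highest germ-cell level at Sg in control. For Ezh1, Eed and Mtf2 the control intervals at Sg and L-Z overlap, and in cKO the Ezh1 value was higher at L-Z.

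Of the 9 members other than Phf19, 8 had their highest control level among the germ classes in spermatogonia-like or leptotene-zygotene-like cells, and the control Phf1 intervals of leptotene-zygotene-like and pachytene-and-later-like cells overlap, so its place cannot be ordered between them. The share of all genes highest in those classes was not counted, so the count is no trait of the members. From leptotene-zygotene-like to pachytene-and-later-like control cells the median autosomal gene also fell, by a log2 difference of -0.31. The members' profiles over the 7 named classes of the control library were compared on the log2 scale as a description; the points share a library and its free RNA. Mtf2 went with Rbbp4 (Pearson r = 0.97) and Suz12 (0.96), whereas Ezh1 and Ezh2 had r = 0.37 and Ezh2 and Rbbp7 had r = -0.34. Among 13841 other genes with at least 200 control UMIs, the profiles closest to Ezh1 were those of Sike1 (r = 0.997), Gnai2 (0.996) and Wtap (0.995), and 1294 genes had r above 0.9. Those closest to Ezh2 were Zbtb48 (0.992), Tmem265 (0.989) and the germ-cell gene Ddx4 (0.984), with 283 genes above 0.9.

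Few member levels differed by more than 2-fold between the libraries. Ratios are log2 of cKO over control CPM after adding 1 CPM to both, and a ratio past 2-fold with at least 20 UMIs over both libraries was counted. Of 63 ratios (9 members in 7 named classes) 1 passed, Phf1 in Sertoli-like cells. Over all genes with 20 UMIs, the share past 2-fold in either direction was 2.25% in spermatogonia-like, 0.725% in leptotene-zygotene-like, 0.126% in pachytene-and-later-like, 0.354% in round and 0.164% in elongating spermatid-like cells, 3.97% in Sertoli-like and 8.47% in Leydig-like cells, and 0.094% over all cells. The members' count of 1 in 63 is read against these shares and is no result about PRC2.

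Phf1 in Sertoli-like cells was at 38.2 CPM in control (37 UMIs, interval 26.9 to 52.7) and 17.5 CPM in cKO (21 UMIs, 10.9 to 26.8), a log2 ratio of -1.08. The ratio was not past 2-fold with a minimum of 2000 UMIs per cell (-0.52), without doublets (-0.77), with a pseudocount of 10 CPM (-0.81) or with each cell placed by its own markers (-0.03), and it was -5.57 with free RNA subtracted. In spermatogonia-like cells the Phf1 ratio had the other direction, 0.65, from 17.3 to 27.9 CPM, in the library with the larger estimate of free RNA there. It ranged from 0.21 to 1.64 over the alternatives, the latter with free RNA subtracted.

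Suz12 and Ezh1 were lower in the cKO library in all 7 named classes, except that Ezh1 in Sertoli-like cells came to 0.02 with the median ratio of all genes set to 0 and Suz12 in Leydig-like cells to 0.29 with each cell placed by its own markers. Per named class, 49.7% to 66.3% of all genes were below 0. The share of all genes below 0 in all 7 classes was not counted. The classes also share the same pair of libraries and their free RNA, so they are not separate observations. The Suz12 log2 ratio was -0.43 in spermatogonia-like, -0.38 in leptotene-zygotene-like, -0.38 in pachytene-and-later-like, -0.55 in round and -0.76 in elongating spermatid-like cells, -0.3 in Sertoli-like and -0.33 in Leydig-like cells. The elongating value ran from -1.97 (free RNA of barcodes with at least 500 and under 1000 UMIs subtracted) to -0.37 (pseudocount of 10 CPM). The Ezh1 log2 ratio in the same order was -0.82, -0.45, -0.18, -0.65, -0.26, -0.06 and -0.29. In the somatic classes the counting intervals of the UMI ratio span 0. For Suz12 they ran from -0.79 to 0.17 in Sertoli-like and from -1.02 to 0.33 in Leydig-like cells, and for Ezh1 from -0.72 to 0.61 and from -1.22 to 0.58. The Ezh1 intervals also span 0 in pachytene-and-later-like (-0.56 to 0.14) and elongating spermatid-like cells (-1.3 to 0.28). The elongating Ezh1 ratio came to 0 with the free RNA of barcodes with at least 500 and under 1000 UMIs subtracted. The Ezh1 ratio in Sertoli-like cells was no lower than the median of all genes there, -0.08. Subtracting the free RNA estimated from barcodes under 100 UMIs turned the Suz12 ratio in spermatogonia-like cells to 0.09 and in Sertoli-like cells to 0.4, and left that in leptotene-zygotene-like cells at -0.4. It turned the Ezh1 ratio in Sertoli-like cells to 0.69, while that in spermatogonia-like cells was -0.52. In spermatogonia-like cells it also turned Eed from -0.04 to 0.47, Jarid2 from -0.15 to 0.37, Rbbp4 from -0.25 to 0.16 and Rbbp7 from -0.1 to 0.41.

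Over all cells Suz12 and Ezh1 had the lowest ratios among the members, but within the somatic classes other members lay farther from 0. In Sertoli-like cells Ezh2 was at -0.55, and ran from -6.22 (free RNA of barcodes with at least 500 and under 1000 UMIs subtracted) to 0.02 (each cell placed by its own markers). Eed in both somatic classes (-0.52 and 0.65) and Jarid2 (0.61) and Mtf2 (-0.61) in Leydig-like cells rest on 25 to 50 UMIs over both libraries, and their intervals span 0. Rbbp7 in Leydig-like cells was at -0.36 from 778 UMIs (interval -0.57 to -0.15), and ran from -0.79 to -0.19 over the alternatives. In elongating spermatid-like cells Rbbp7 (-0.47), Ezh2 (-0.41), Rbbp4 (-0.4) and Eed (-0.32) lay below Ezh1, and in pachytene-and-later-like cells Rbbp7 did (-0.34), as did Suz12 in both. The log2 ratio over all cells was -0.49 for Suz12, -0.45 for Ezh1, -0.35 for Rbbp7, -0.23 for Rbbp4, -0.14 for Jarid2, -0.11 for Mtf2, -0.09 for Eed, -0.04 for Ezh2 and -0.02 for Phf1. All 9 were below 0, as were 53.9% of the 21276 genes with 20 UMIs. The median ratio was -0.14 for the members and -0.02 for all genes. In elongating spermatid-like cells 9 of 9 members were below 0 (median -0.32) beside 66.3% of all genes (median -0.1), but subtracting the free RNA of barcodes under 100 UMIs turned Jarid2 to 0.16 and Mtf2 to 1.11 there, and Phf1 to 0.03 with the profile of barcodes with at least 500 and under 1000 UMIs. In Leydig-like cells 4 of 9 were below 0 beside 49.7%. Among the 10699 genes with at least 1000 UMIs, 4.3% had a ratio over all cells at or below that of Suz12, 5.54% for Ezh1, 10.9% for Rbbp7 and 45.4% for Ezh2. A ratio over all cells also takes in unlike cell shares. Cluster 8 was 4.66% of control and 1.65% of cKO cells, with 310 of 1767 control and 60 of 1015 cKO Rbbp7 UMIs. The part of cell shares in these ratios was not tested.

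Across the whole library the ratio moved with the span of the gene. Of those 10699 genes, 10138 (94.8%) had a RefSeq span. When these were put in 4 groups of near-equal size by span, the median log2 ratio was 0.09 in the group of the shortest genes (median span 4.12 kb), then 0.02, then -0.06, and -0.17 in the group of the longest (92.1 kb). The share of genes below 0 was 29.9%, 45.3% and 62.3% in the first 3 groups and higher still in the last. Suz12 spans 41018 bases, Ezh1 35349, Ezh2 64997, Jarid2 190870 and Phf1 4782. Gene span moved with the ratio over all genes, and its part in the ratios of Suz12 and Ezh1 was not tested.

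**Figure D4:**
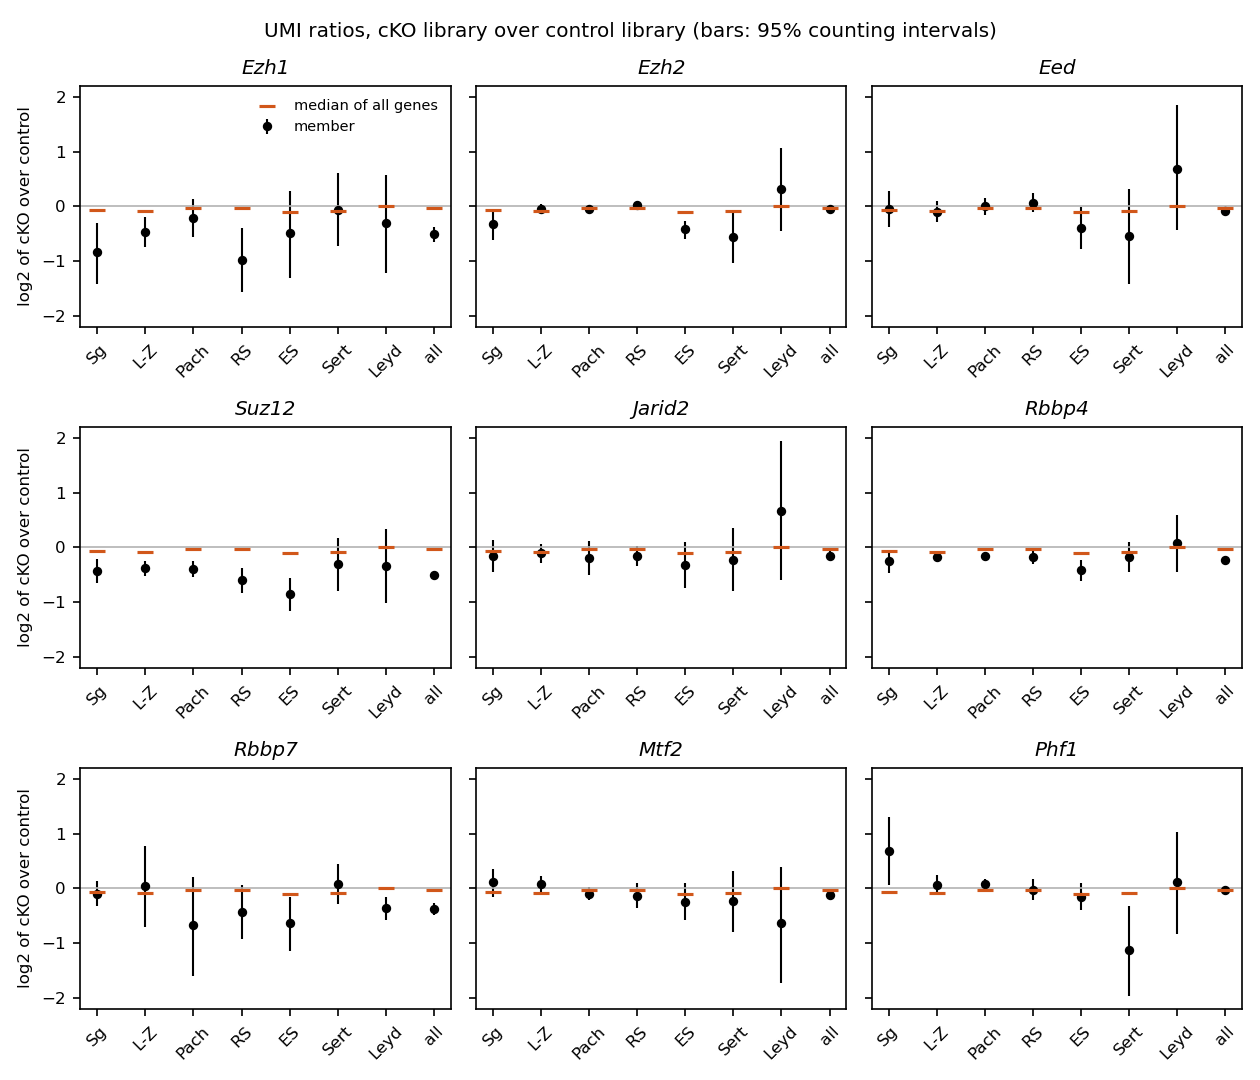
Log2 of cKO over control UMIs (no pseudocount, each scaled to the class total) for 9 members in 7 classes and over all cells, with 95% exact conditional binomial intervals; class names as Sg, L-Z, Pach, RS, ES, Sert, Leyd and all. The horizontal dash is the median of all genes in the class; Suz12 and Ezh1 points lie below 0 in every panel position.

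The round spermatid-like class was made of clusters in unlike parts: cluster 4 gave it 482 control and 193 cKO cells, and cluster 18 gave it 494 and 718.

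In the unnamed clusters 4 further ratios passed 2-fold. In cluster 17, led by the Sertoli-cell genes Aard and Tsx and also rich in elongating spermatid markers, Ezh1 (-2.19), Rbbp7 (-1.22) and Mtf2 (-1.08) were lower in the cKO library, where 5.34% of all genes passed. Ezh1 there rests on 30 control and 2 cKO UMIs (interval -5.97 to -0.88), and Mtf2 on 34 and 7 (-2.65 to -0.04). In cluster 16, led by Fam71b and Actrt3, Mtf2 was lower (-1.35), where 2.13% of all genes passed. No member passed in cluster 8 (4.41% of all genes), cluster 21 (0.725%), cluster 5 (1.9%, of whose cells 81.0% in control and 72.1% in cKO were called doublets) or cluster 19 (1.13%). Cluster 8 had 524 control and 141 cKO cells, and Rbbp7 there was at 106 and 67.2 CPM.

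Other genes of the Polycomb system were counted by the same rule over the 7 named classes, where the share of all genes past 2-fold ran from 0.126% (pachytene-and-later-like) to 8.47% (Leydig-like). Counts this small are read against those shares and set no list apart. Among further PRC2 partners 1 of 21 gene and class pairs was higher and 1 lower in cKO: Epop, a PRC2.1 partner, was at 5.37 CPM in control and 12.0 in cKO spermatogonia-like cells, and Lcorl, whose long isoform PALI2 joins PRC2.1, at 69.2 and 26.7 CPM in Sertoli-like cells. Epop is outside the rule for naming genes and was picked after its value was seen. Lcorl was at 244 CPM in control and 199 in cKO leptotene-zygotene-like cells, and Aebp2, a partner of Jarid2 in PRC2.2, at 69.9 and 61.3 CPM. Among genes of PRC1, which ubiquitinates histone H2A, 1 of 127 pairs was higher and 2 lower. Bmi1, a PRC1 subunit, was at 102 and 79.8 CPM in leptotene-zygotene-like, 20.5 and 18.3 in pachytene-and-later-like and 226 and 208 CPM in elongating spermatid-like cells. Its highest germ-cell level was thus in the class where every PRC2 member other than Rbbp7 and Phf19 was lowest in control.

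Among the H3K27 demethylases 1 of 18 pairs was lower, the targeted Kdm6a in spermatogonia-like cells, and Kdm6b, its autosomal relative, was there at 50.3 CPM in control and 60.6 in cKO. Among genes of the BAP1 complex, which removes ubiquitin from H2A, 0 of 50 were higher and 1 lower. Of 87 pairs of proliferation genes 0 passed in either direction. Top2a, the topoisomerase of dividing cells, was at 546 and 418 CPM in spermatogonia-like cells. The median log2 ratio over all cells was -0.22 for the PRC2 partners, -0.17 for PRC1, -0.18 for the BAP1 complex and -0.11 for proliferation genes, beside -0.14 for the members.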

How the data were processed

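Single-cell RNA-seq of whole testis was aligned to mm10 and counted with Cell Ranger, and Seurat 4.1.0 was used, per the submitters' processing notes. The deposited matrices hold UMI counts for every barcode, with no cell selection or normalization. The ATAC-seq lists of the authors (cutadapt, Bowtie2 and MACS2, per the submitters' processing notes) give for each peak a fold over background, which is a ratio, and the −log10 of its q value. The CUT&Tag lists of the authors (SEACR regions) give a signal per region, of which only the positions were used. Peaks were called per library.

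Barcodes with at least 3000 UMIs were clustered with scanpy 1.11.5 (2000 variable genes, 30 components, resolution 1), with members and Polycomb genes left out of the variable genes. A cluster took the name of the list with the largest share of markers raised at least 1.5-fold with 10 UMIs. It stayed unnamed with fewer than 3 such markers, with more genes of another list than of its own among its top 10, or with a list of the other compartment (germ or somatic) at 50% or more. It also stayed unnamed where the next list reached 75% of the best share, unless 3 of its own markers were in the top 10, as held for the Leydig-like cluster, where the stromal list reached 87.5% beside 92.9%. These naming thresholds were set after marker scores and member levels had been seen, and they replaced a first score by mean marker level. Placement of each cell by its own markers was an alternative. The members and lists were chosen with earlier results of these data known. The pairs of paralogues, the steps between classes, the second free-RNA profile, the promoter comparison and the groups by span were also chosen after values were seen. Doublets were called with Scrublet and kept. UMIs were summed per library and class and given as CPM of the class, with exact 95% Poisson intervals (scipy 1.17.1), and shares with exact Clopper-Pearson intervals. Depth per class ranged from 805535 to 32045808 UMIs over the named classes. Free RNA was taken from barcodes under 100 UMIs. All members, the 3 genes of a list with most UMIs, Kdm6a and Ezhip are named. No p-value was computed. Ratios were tried on simulated spermatogonia-like counts with 200 genes changed 4-fold, of which 98.0% passed 2-fold, beside 0.925% of unchanged genes. The simulated libraries did not differ in free RNA or cell composition, so the trial does not cover those, nor smaller changes. The bulk RNA files were not used here, because their transcripts are not paired with names.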

Additional observations from a re-analysis of the deposited data

How the results depend on the processing

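The number of member and class ratios past 2-fold, 1 as reported, was 0 with a minimum of 2000 UMIs per cell, with at most 10% mitochondrial UMIs, with each cell placed by its own marker scores and with a pseudocount of 10 CPM. It was 2 at a clustering resolution of 0.5 and of 2, 8 with the free RNA of barcodes under 100 UMIs subtracted, and 7 with that of barcodes with at least 500 and under 1000 UMIs, a setting chosen after seeing the data. At most 10% mitochondrial UMIs left no Sertoli-like value. Of the 63 class ratios, 30 changed sign under at least 1 alternative, 8 of them only under free-RNA subtraction. The ratio over all cells does not use the classes, so it also takes in the unlike cell shares of the libraries, and it had no free RNA subtracted. Under the alternatives that could change it (UMI minimum, mitochondrial limit, doublets, pseudocount, median of all genes set to 0) it stayed below 0 for 9 members, although Phf1 rounded to 0 under the last. In the alternatives run, ATAC-seq peaks lay over 8 promoters in every library. The count was also 8 with each library left out, though leaving a library out or widening the window cannot lower it. Ezh1 had a peak in 2 to 4 of 5 libraries, and H3K27me3 regions lay over 0 promoters. No paired analysis was possible because each genotype has 1 single-cell library and the chromatin comparison is a count with no test. Depth limits Phf19 throughout, and the somatic classes, with 805535 to 1198032 UMIs, have wide intervals.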
